A study of Mus musculus with 4 samples.

Results

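The genes described here are 10 stress genes of the ATF4 and CHOP pathway: 6 that code for transcription factors or chromatin proteins (Atf4, Atf3, Atf5, Ddit3, Cebpb and Nupr1) and 4 that code for effectors (Trib3, Chac1, Ppp1r15a and Gdf15). They were chosen by name, as the rows of the deposited tables whose Ensembl identifier maps to these symbols. All 10 were found, out of 20089 genes, and each had enough reads to be compared in every comparison. The choice used no expression value, though it was made with earlier results of these data known.

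RNA was sequenced from HT22, an immortalised neuronal line from mouse hippocampus that the labels give as hippocampal neurons of strain C57BL/6. Every culture had been infected with a lentivirus, either a control negative one or one targeted against Neat1, a long noncoding RNA. Each kind of cell was grown either in DMEM/F12 with serum, called normal culture below, or under oxygen and glucose deprivation (OGD), a culture model of ischaemia whose duration is not given in the labels. There was 1 library for each of the 4 groups, which leaves every difference below without a replicate check and allowed no test between groups. No cells without lentivirus are among the samples, and a single targeted lentivirus stands for the knockdown.

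In the integrated stress response, kinases that sense unfolded protein, missing amino acids, double-stranded RNA or oxidative damage phosphorylate the initiation factor eIF2. Protein synthesis as a whole then slows, while the mRNA of ATF4 is translated more, because short upstream reading frames hold it back only when eIF2 is active. ATF4 turns on genes of amino acid supply together with CHOP (the product of Ddit3), and the pathway has been studied in neurons short of oxygen or glucose. The values below are mRNA levels and say nothing of the translation of ATF4.

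Target letters of these factors were looked for in the RefSeq promoters of the genes (GRCm38.p6), 250 bases before to 50 bases after the start site. All 10 genes had a promoter there, with 12 windows between them. The C/EBP-ATF composite element, which ATF4 binds as a pair with a C/EBP protein, was searched as TGATGNAA on both strands. It was present in 4 of the 10 genes (Atf3, Chac1, Trib3 and Nupr1) and in 4.51% of all 27025 genes with a promoter (3.97% of 32851 promoters). The cyclic AMP response element, TGACGTCA, was present in 1 of the 10 genes (Ppp1r15a) and in 2.03% of genes (1.79% of promoters). The stretches holding these matches are shown because the genes that carry them differ in their response below. They lie at chr1:191183416-191183463 for Atf3, chr2:119351029-119351076 for Chac1, chr2:152344028-152344057 for Trib3, chr7:126625553-126625600 for Nupr1 and chr7:45526269-45526300 for Ppp1r15a. Each is written 5′ to 3′ on the gene's own strand (plus for Chac1, minus for the others), with the match in capitals. The composite element reads as its reverse complement in all 4.
Atf3: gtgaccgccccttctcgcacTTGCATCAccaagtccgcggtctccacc
Chac1: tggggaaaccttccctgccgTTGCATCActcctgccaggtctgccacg
Trib3: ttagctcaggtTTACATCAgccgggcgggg
Nupr1: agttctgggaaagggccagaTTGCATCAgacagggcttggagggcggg
Ppp1r15a: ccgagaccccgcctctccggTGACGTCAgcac

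The match began 110 bases before the start site in both Atf3 and Nupr1, 193 bases before it in Chac1 and 12 bases before it in Ppp1r15a. That of Trib3 began at base 15 after its RefSeq start. The short core of the cyclic AMP response element, TGACG, lies inside TGACGTCA on both strands. It was present in 6 of the 10 genes and in 23.0% of genes (20.8% of promoters). The core of the hypoxia element, ACGTG, was present in 4 of the 10 (Ddit3, Nupr1, Ppp1r15a and Gdf15) and in 21.8% of genes (19.6% of promoters). Atf5 held none of the 4 sets of letters in its windows. A match describes letters and is not a bound site. Bases outside these windows were not searched, so a gene without a match here may hold the letters elsewhere.

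**Figure D1:**
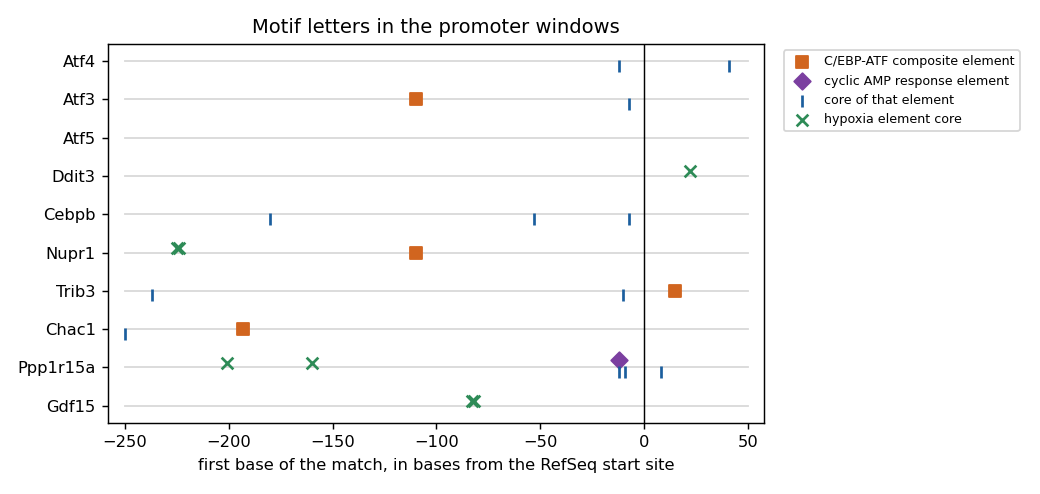
Position of each motif match in the promoter windows of the 10 genes, with the first base of the match on the x axis in bases from the RefSeq start site (black line at 0). Orange squares mark the C/EBP-ATF composite element in Atf3, Nupr1, Trib3 and Chac1, the purple diamond the cyclic AMP response element of Ppp1r15a 12 bases before its start, blue ticks the short core of that element and green crosses the hypoxia core; Atf5 has no mark.

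Between 17232866 reads (control cells under OGD) and 20764430 reads (knockdown cells in normal culture) were assigned to genes per library. Levels are given in CPM, with library sizes adjusted by TMM factors. Neat1 itself stood at 193 CPM in control and 121 CPM in knockdown cells of normal culture, and at 74.4 and 42.1 CPM under OGD. The target was thus lower with knockdown by less than 2-fold in both cultures. Control cells under OGD held less Neat1 than knockdown cells of normal culture. The library of control cells in normal culture stood apart: 2094 genes were at least 4-fold higher there than in each of the other libraries. Among them are genes of mature neurons and of other brain cells. The 12 neuronal markers of a list summed to 2041 CPM there, against 45.7 CPM in knockdown cells of normal culture, 185 CPM in control cells under OGD and 378 CPM in knockdown cells under OGD. None of the 12 was at 0 reads in a library, but 5 had under 20 reads in knockdown cells of normal culture and 3 in control cells under OGD. The 12 markers of glia, vessels and blood summed to 307, 15.1, 24.4 and 116 CPM in the same order, with Aqp4, Cldn5, Cx3cr1 and Gfap at 0 reads in control cells under OGD. Knockdown in normal culture and OGD in control cells both use the library that stands apart. The marker sums move with the groups in all 4 comparisons, and their part in the results below was not tested. The labels name HT22 as the only cells and give no source for transcripts of glia, vessels and blood. That source was not tested. In RNA from whole cultures, fewer cells of a type and less RNA per cell cannot be told apart.

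With OGD, 9 of the 10 genes were at least 2-fold higher in control cells and the same 9 were at least 2-fold higher in knockdown cells. Cebpb was the exception in both. Among all genes, 9.36% were at least 2-fold higher with OGD in control cells and 22.2% at least 2-fold lower; in knockdown cells these shares were 19.1% and 16.9%. None of the 10 genes was 2-fold lower. Their median log2 ratio was 2.58 in control cells (all genes -0.11) and 1.62 in knockdown cells (all genes -0.0020). The summed level of the 10 genes went from 865 to 3585 CPM in control cells and from 1071 to 2876 CPM in knockdown cells. A log2 ratio here has 0.5 CPM added to each level; folds and 95% intervals are computed without it and cover counting error only, with copies made by PCR counted as reads.

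**Figure D2:**
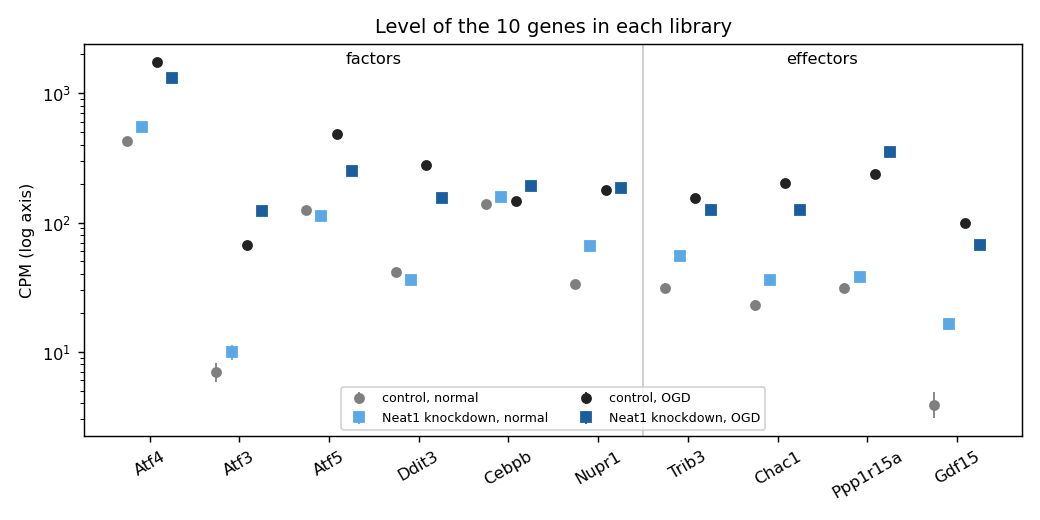
Level of each gene in each library, in CPM on a log axis, with exact 95% Poisson intervals that cover counting error (most are smaller than the symbol). Circles are control cells and squares Neat1 knockdown cells, in normal culture (grey, light blue) and under OGD (black, dark blue); the OGD symbols lie above the normal-culture ones for every gene but Cebpb, which stays between 140.0 and 192 CPM.

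Atf4, the factor at the head of the pathway, had 8443 reads in control and 11696 in knockdown cells of normal culture, and 26657 and 25588 reads under OGD. These are 430.6, 544.5, 1733 and 1307 CPM. OGD therefore went with a 4.02-fold higher level in control cells (interval 3.93 to 4.12) and a 2.40-fold higher level in knockdown cells (2.35 to 2.45). Knockdown cells held more Atf4 mRNA than control cells in normal culture, 1.26-fold (1.23 to 1.30), and less under OGD, 1.33-fold lower (1.30 to 1.35). Atf4 carried between 45.4% and 50.8% of the reads of the 10 genes in every library. Per length it was also the most abundant of them in all 4, at 300.1, 369.7, 1025 and 887 FPKM.

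Ddit3 codes for CHOP, a C/EBP family member that ATF4 induces and that promotes cell death under prolonged stress. It had 808, 774, 4270 and 3008 reads in the order kept below: control then knockdown cells of normal culture, and control then knockdown cells under OGD. The corresponding levels were 41.2, 36.0, 278 and 154 CPM. The OGD libraries lay far above those of normal culture, by 6.74-fold in control cells (6.25 to 7.27) and 4.26-fold in knockdown cells (3.94 to 4.62). Knockdown cells had the lower level in both cultures, 1.14-fold in normal culture (1.03 to 1.26) and 1.81-fold under OGD (1.72 to 1.89). Relative to Atf4, Ddit3 made up 0.260, 0.176, 0.432 and 0.321 of its FPKM, so the balance moved toward Ddit3 with OGD in both kinds of cell.

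Atf5, a relative of ATF4 that is also under translational control by eIF2, had 2436, 2403, 7508 and 4897 reads (124, 112, 488 and 250.1 CPM). Its OGD ratio in control cells, 3.93-fold (3.75 to 4.11), could not be told from that of Atf4 by the counting intervals. In knockdown cells it was 2.24-fold (2.13 to 2.35). Under OGD the knockdown library held 1.95-fold less Atf5 (1.88 to 2.02), the lowest of the 10 knockdown ratios there and just inside 2-fold. The ratio of Atf5 to Atf4 in FPKM was 0.284 and 0.277 in the control libraries and 0.202 and 0.188 in the knockdown libraries, and so differed with the lentivirus more than with the culture.

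Atf3, a stress-induced factor that acts on many of the same promoters, was among the rarest of the 10 in normal culture, with 136 and 213 reads, and had 1036 and 2394 reads under OGD. The levels were 6.94, 9.92, 67.3 and 122 CPM. OGD gave a 9.71-fold difference in control cells (8.11 to 11.7) and a 12.3-fold one in knockdown cells (10.7 to 14.3). Unlike the genes above, Atf3 was not lower in the knockdown library under OGD: it was 1.82-fold higher (1.69 to 1.95). The ratio of Atf3 to Atf4 in FPKM was 0.0150, 0.0179, 0.0393 and 0.0996, highest in knockdown cells under OGD.

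Nupr1, a small chromatin-bound stress protein, had 650, 1421, 2757 and 3605 reads (33.1, 66.2, 179 and 184 CPM). In normal culture the knockdown library held 2.00-fold more (1.82 to 2.19), a log2 ratio of 0.99 that falls just short of the rule. Under OGD the libraries had the same level within counting error, a ratio of 1.03 (0.977 to 1.08). OGD gave 5.41-fold more in control cells (4.96 to 5.90) and 2.78-fold more in knockdown cells (2.62 to 2.96), from unequal starting levels to nearly equal final ones.

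Cebpb, a C/EBP partner of ATF4 with roles in inflammation and differentiation, had 2745, 3377, 2270 and 3752 reads (140.0, 157, 148 and 192 CPM). It was the flattest of the 10. Its OGD ratio was 1.05 in control cells (0.997 to 1.11, log2 0.08, turning to -0.16 with total counts or FPKM) and 1.22 in knockdown cells (1.16 to 1.28). Because Ddit3 changed around it, the FPKM ratio of Cebpb to Ddit3 went from 1.46 to 0.231 in control cells and from 1.91 to 0.534 in knockdown cells. Cebpb was thus the more abundant of the pair in normal culture and Ddit3 under OGD.

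Among the effectors, Gdf15 codes for a secreted hormone of the TGF-beta superfamily that is released by stressed cells and acts through a receptor in the hindbrain. It had 76, 350, 1516 and 1304 reads (3.88, 16.3, 98.5 and 66.6 CPM). The control library of normal culture was the lowest by far, with an interval of 3.05 to 4.85 CPM. OGD in control cells gave a 25.4-fold difference (20.2 to 32.45), rank 4 from the highest log2 ratio of 14101 genes. In knockdown cells the difference was 4.09-fold (3.63 to 4.61), rank 857 of 14071. Most of that contrast lay in normal culture, where the knockdown library held 4.20-fold more Gdf15 (3.27 to 5.46); under OGD it held 1.48-fold less (1.37 to 1.59).

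Chac1, an enzyme that breaks down glutathione, had 449, 777, 3087 and 2443 reads (22.9, 36.2, 201 and 125 CPM). It was 8.76-fold higher with OGD in control cells (7.93 to 9.70) and 3.45-fold higher in knockdown cells (3.18 to 3.74). Its knockdown ratio changed side with the culture: 1.58-fold higher in normal culture (1.40 to 1.78) and 1.61-fold lower under OGD (1.52 to 1.70). Chac2, its constitutive relative, stood at 6.80, 9.30, 5.02 and 11.8 FPKM. Chac1 was 2.49 times as abundant as Chac2 per length in control cells of normal culture and 25.1 times under OGD, against 2.80 and 7.62 times in knockdown cells.

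Trib3, a pseudokinase that binds ATF4, CHOP and AKT and acts back on them, had 612, 1193, 2369 and 2449 reads (31.2, 55.5, 154 and 125 CPM). OGD gave 4.93-fold more in control cells (4.51 to 5.40) and 2.25-fold more in knockdown cells (2.10 to 2.42). Knockdown gave 1.78-fold more in normal culture (1.61 to 1.965) and 1.23-fold less under OGD (1.16 to 1.30); the second of these turned to a log2 ratio of 0.09 with the deposited FPKM. The other tribbles genes were at least 2-fold lower with OGD: on the CPM scale Trib1 had log2 ratios of -1.62 in control and -2.09 in knockdown cells, and Trib2 -3.58 (9 against 244 reads) and -1.44 (69 against 223 reads). Per length, Trib1 stood at 8.15, 9.0, 2.19 and 2.02 FPKM and Trib2 at 4.44, 2.89, 0.13 and 0.91 FPKM. Trib3 was 3.04 times as abundant as Trib1 in control cells of normal culture and 45.6 times under OGD, and 4.16 and 52.5 times in knockdown cells.

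Ppp1r15a codes for GADD34, which brings protein phosphatase to eIF2 and so ends the response. It had 611, 808, 3676 and 6868 reads (31.2, 37.6, 239 and 351 CPM). OGD gave 7.67-fold more in control cells (7.04 to 8.37) and 9.32-fold more in knockdown cells (8.67 to 10.0). Like Atf3, and unlike the other effectors, it was higher in the knockdown library under OGD, 1.47-fold (1.41 to 1.53). Its constitutive relative Ppp1r15b (CReP) stood at 15.5, 11.6, 27.1 and 19.2 FPKM, so that the ratio of the inducible to the constitutive subunit was 1.10, 1.99, 4.48 and 10.97.

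**Figure D3:**
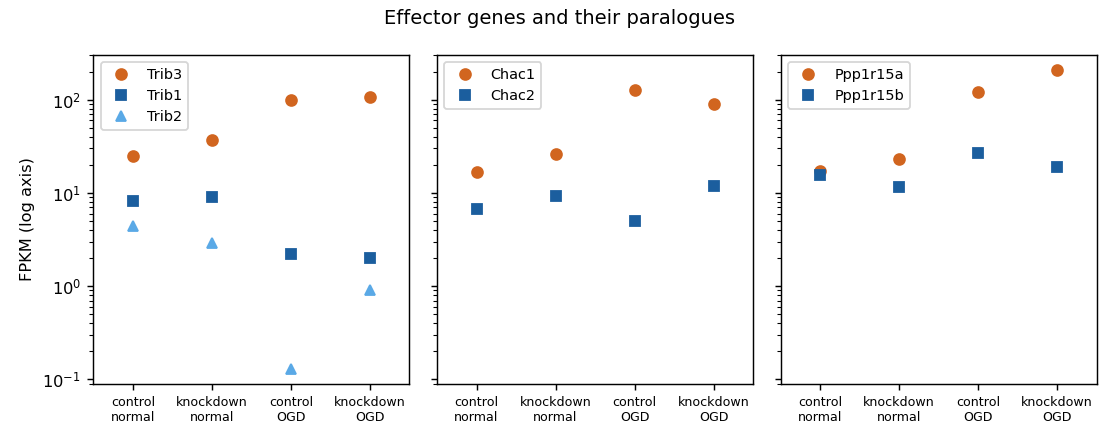
FPKM of Trib3, Chac1 and Ppp1r15a (orange circles) and of their paralogues (blue) in the 4 libraries, on a log axis. There are no error bars, since no intervals were computed for the FPKM values. In each panel the orange points lie above the blue ones, and the gap is wider under OGD: Ppp1r15a is 1.10 times Ppp1r15b in control cells of normal culture and 10.97 times in knockdown cells under OGD.

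The order of the OGD ratios was not the same in the 2 kinds of cell, which share no library. In control cells it ran Gdf15, Atf3, Chac1, Ppp1r15a, Ddit3, Nupr1, Trib3, Atf4, Atf5 and Cebpb, with log2 ratios of 4.50, 3.19, 3.10, 2.92, 2.74, 2.42, 2.28, 2.01, 1.97 and 0.08. The counting intervals of neighbours overlapped for Atf3 and Chac1, Chac1 and Ppp1r15a, Ppp1r15a and Ddit3, Nupr1 and Trib3, and Atf4 and Atf5. In knockdown cells it ran Atf3, Ppp1r15a, Ddit3, Gdf15, Chac1, Nupr1, Atf4, Trib3, Atf5 and Cebpb, with log2 ratios of 3.56, 3.20, 2.08, 2.00, 1.77, 1.47, 1.26, 1.16, 1.16 and 0.28. There the intervals of neighbours overlapped for Ddit3 and Gdf15, Gdf15 and Chac1, Atf4 and Trib3, and Trib3 and Atf5. Atf3 and Ppp1r15a thus headed the list in knockdown cells, while Gdf15, first in control cells, lay below both and could not be told from Ddit3 or Chac1.

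Per length, the order of abundance also moved. After Atf4 came Cebpb (114 FPKM), Atf5 (85.2) and Ddit3 (78.0) in control cells of normal culture, with Gdf15 last at 3.27. Ddit3 was next to Atf4 in control cells under OGD at 443 FPKM, followed by Atf5 at 284 and Nupr1 at 261. In knockdown cells under OGD Nupr1 took that place at 312 FPKM, ahead of Ddit3 at 285 and Ppp1r15a at 211. The FPKM values are the authors' and carry no TMM scaling, so orders and ratios of genes were taken within a library and changes of 1 gene between libraries from CPM.

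The knockdown ratios differed between the cultures. In normal culture 1 of the 10 genes, Gdf15, was at least 2-fold higher in knockdown cells and 0 were 2-fold lower, where 6.25% of all genes were higher and 16.3% lower. Of the 10, 8 had a log2 ratio above 0, and the median was 0.41 (all genes -0.03). Under OGD 0 of the 10 were 2-fold higher and 0 were 2-fold lower, where 10.7% of all genes were higher and 4.23% lower. There 6 had a log2 ratio below 0 and the median was -0.35 (all genes -0.00071). With total counts or FPKM in place of TMM, where the all-gene median shifted by 0.19, Atf3 passed 2-fold under OGD at 1.06 and 1.12.

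**Figure D4:**
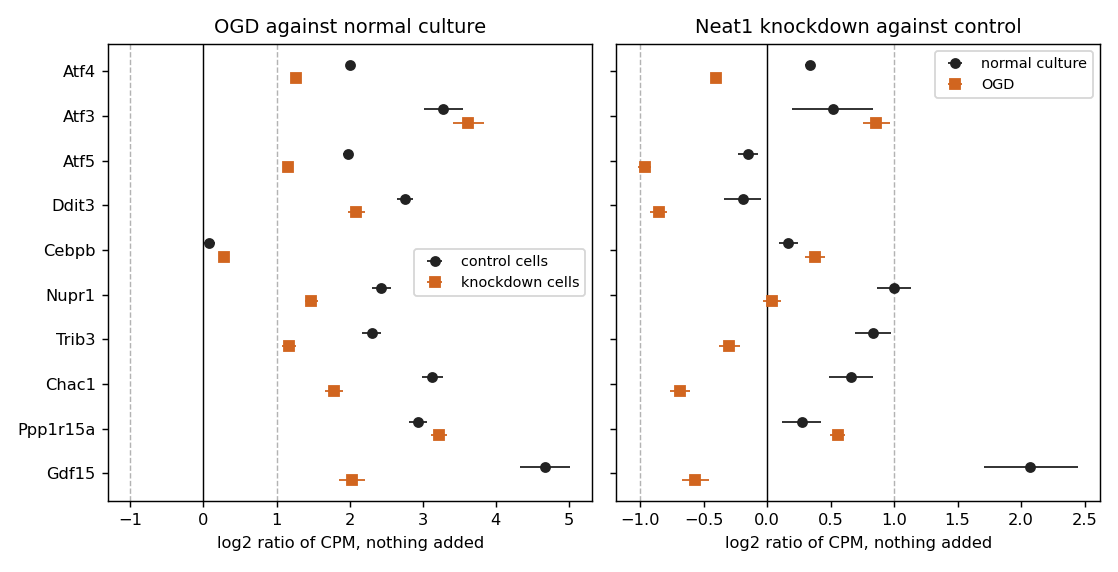
Log2 ratios of CPM with nothing added, for OGD against normal culture (left, control cells black and knockdown cells orange) and for Neat1 knockdown against control (right, normal culture black and OGD orange). Bars are 95% counting intervals and dashed lines mark 2-fold; on the left every gene but Cebpb lies beyond 2-fold, and on the right the orange points of Atf4, Trib3, Chac1 and Gdf15 lie below 0 where their black points lie above it.

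The genes fell into 3 patterns of knockdown ratio. Atf4, Trib3, Chac1 and Gdf15 were above 0 in normal culture and below 0 under OGD, with both intervals clear of equality. The place of Trib3 depended on the scaling, since its log2 ratio under OGD turned to 0.09 with the deposited FPKM. Atf5 and Ddit3 were below 0 in both cultures. Atf3, Cebpb, Nupr1 and Ppp1r15a were above 0 in both, Nupr1 under OGD only within counting error. No gene went from below 0 to above it. The 4 genes with a composite element match in the searched window are spread over the first and the last of these patterns (Trib3 and Chac1, Atf3 and Nupr1). Whether the other genes hold the element outside the window was not examined.

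The OGD log2 ratio of knockdown cells minus that of control cells was below 0 for 7 genes and above 0 for 3. By this measure 3 of the 10 were lower by at least 1, namely Gdf15 at -2.50 (-3.01 to -2.26), Chac1 at -1.33 (-1.53 to -1.16) and Trib3 at -1.12 (-1.29 to -0.97). Among all 13086 genes 7.15% were lower by at least 1 and 15.3% higher by at least 1. Nupr1 (-0.95), Atf5 (-0.81), Atf4 (-0.75) and Ddit3 (-0.66) were lower by less, and Cebpb (0.21), Ppp1r15a (0.29) and Atf3 (0.37) were higher. The median of the 10 was -0.78, that of all genes -0.04. With the deposited FPKM the difference of Trib3 was -0.50, and with total counts -0.89, both inside the limit of 1. Gdf15 and Chac1 stayed beyond it under both.

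**Figure D5:**
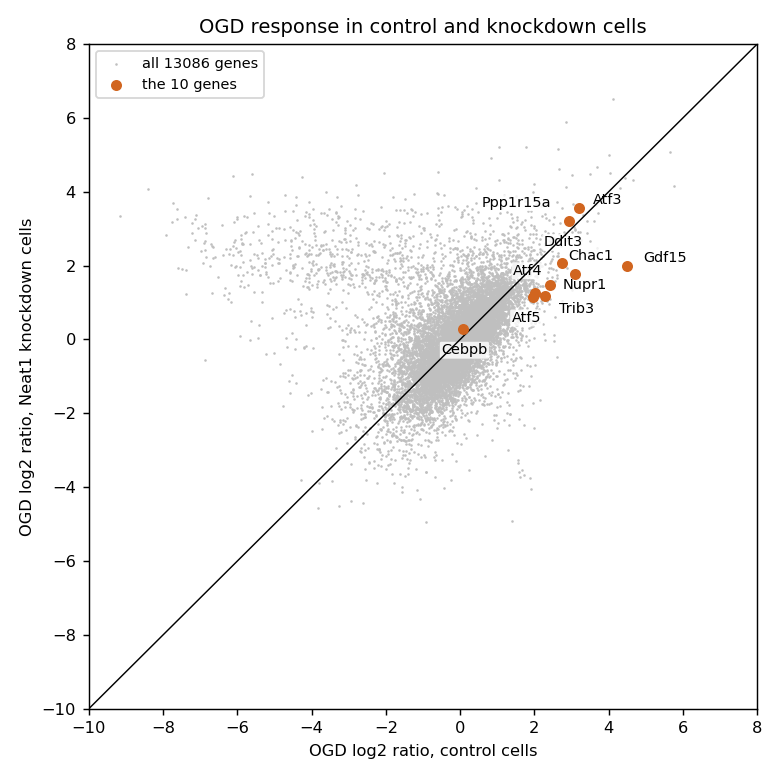
OGD log2 ratio (0.5 CPM added) in control cells (x) and in Neat1 knockdown cells (y) for all 13086 genes with enough reads (grey) and the 10 genes (orange), with the line of equality. Of the 10, 7 lie below the line, Gdf15 the farthest at 4.50 and 2.00, while Atf3, Ppp1r15a and Cebpb lie above it; the grey points far to the upper left are low in control and high in knockdown cells with OGD.

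The authors' deposited table gives p-values for each comparison of single libraries, which rest on no replicates. In the authors' deposited table for OGD in control cells, 3 of the 10 genes had an adjusted p under 0.05: Gdf15 (0.0015), Chac1 (0.034) and Ppp1r15a (0.0499). Of all genes in it 1.21% did. In the authors' deposited table for each of the other comparisons 0 of the 10 did, against 0.0947% of all genes for OGD in knockdown cells, and for knockdown 2.61% (normal culture) and 0.124% (OGD). With an unadjusted p under 0.05 in the authors' deposited table, the counts for OGD were 9 of 10 in control cells (4.31% of all genes) and 3 of 10 in knockdown cells (1.84%). For knockdown, the authors' deposited table gave 0 of 10 in normal culture (5.02% of all genes) and 3 of 10 under OGD (2.01%).

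Known targets of ATF4 and CHOP outside the 10 genes, such as amino acid transporters and synthetases, were counted from a list of 49. With OGD in control cells 29 of the 46 with enough reads were at least 2-fold higher and 0 lower (median 1.31), and in knockdown cells 17 of 47 were higher and 1 lower (median 0.71). Among all genes 9.36% were higher and 22.2% lower in control cells, and 19.1% and 16.9% in knockdown cells. The highest listed targets in control cells were Ero1l (4.66), an oxidase of disulphide formation, and Cth (2.99), an enzyme of cysteine synthesis. Next was the growth factor Vegfa (2.50). Cth had 266 against 34 reads there. In knockdown cells the highest were Ero1l (4.32), Ddit4 (2.76), an inhibitor of mTORC1 signalling, and Vegfa (2.26). OGD removes oxygen as well as glucose, and whether these genes rose through ATF4 or CHOP was not tested. Knockdown gave 3 higher and 0 lower of 47 in normal culture (median 0.24), where 6.25% of all genes were higher and 16.3% lower. Under OGD it gave 0 higher and 5 lower of 46 (median -0.38), where 10.7% of all genes were higher and 4.23% lower. The medians of these targets lay on the same sides of 0 as those of the 10 genes in all 4 comparisons. The comparisons share libraries, so these are not 4 separate agreements. The list was chosen with earlier results of these data known.

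The genes upstream moved less. Of 21 genes for the eIF2 kinases, eIF2, its exchange factor and its phosphatase, 1 was at least 2-fold higher and 1 lower with OGD in control cells (median 0.12), and 1 higher and 2 lower in knockdown cells (median -0.10). In control cells these were Ppp1r15b (1.03) and Eif2ak2 (-1.33), the kinase that senses double-stranded RNA. In knockdown cells they were Impact (1.30), an inhibitor of the GCN2 pathway, Eif2ak2 (-1.92) and Eif2b3 (-1.35), a subunit of the exchange factor. Eif2ak3, which codes for the endoplasmic reticulum kinase PERK, had a log2 ratio of -0.88 in control cells. Knockdown gave 0 higher and 0 lower in normal culture, and 1 higher and 0 lower under OGD. The shares of all genes in each comparison are those given above beside the targets.

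Other bZIP factors, the family of ATF4 and CHOP, were mixed. With OGD 8 of 33 were at least 2-fold higher and 5 lower in control cells, and 10 of 32 higher and 3 lower in knockdown cells. Among all genes these shares were 9.36% and 22.2% in control cells, and 19.1% and 16.9% in knockdown cells. Maff, a small Maf protein, was higher in both (3.70 and 3.44). Hlf (-2.83) and Cebpa (-2.78) were lower in control cells, and Fosb (5.22, with 490 against 4 reads) and Jun (3.18) were higher in knockdown cells. Hlf went the opposite way in knockdown cells (3.02, with 92 against 3 reads). Its levels of 20.1, 0.140, 2.41 and 4.70 CPM were in the same order as the summed neuronal markers, whose part in this was not tested. Knockdown gave 0 higher and 6 lower of 33 in normal culture, where 6.25% of all genes were higher and 16.3% lower. Under OGD it gave 3 higher and 1 lower of 31, where 10.7% of all genes were higher and 4.23% lower.

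Likeness of pattern was measured as the Euclidean distance between log2 profiles over the 4 libraries, each centred on its mean, among 11786 other genes. The genes closest to Atf4 were Scpep1 (distance 0.0989), 2410006H16Rik (0.141) and Eif1 (0.165). For Ddit3 they were Sgcd (0.253), Fam162a (0.366) and Herpud1 (0.377), and for Chac1 Mt2 (0.454), Pfkp (0.505) and Plk3 (0.516). Gdf15 had no such near neighbour, its closest being Lims2 at 0.839, Tcim at 0.970 and Pvr at 1.01. Profiles were not scaled for the size of change, so distances tend to be larger for genes that change more. The flat Cebpb had its closest at 0.027. Among the 10 themselves the closest were Nupr1 and Trib3 (0.344), Atf4 and Trib3 (0.361) and Atf3 and Ppp1r15a (0.409), and the farthest were Cebpb and Gdf15 (3.38).

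In the GENCODE mouse release M21 annotation of GRCm38, the genes lie at 15:80255184-80257541 (Atf4, ENSMUSG00000042406), 1:191170296-191218039 (Atf3, ENSMUSG00000026628), 7:44812256-44816658 (Atf5, ENSMUSG00000038539), 10:127290774-127296288 (Ddit3, ENSMUSG00000025408) and 2:167688915-167690418 (Cebpb, ENSMUSG00000056501). The others lie at 7:126623249-126630861 (Nupr1, ENSMUSG00000030717), 2:152337422-152344032 (Trib3, ENSMUSG00000032715), 2:119351229-119354381 (Chac1, ENSMUSG00000027313), 7:45522916-45526268 (Ppp1r15a, ENSMUSG00000040435) and 8:70629393-70632456 (Gdf15, ENSMUSG00000038508). Of the 10, 4 overlap a gene on the other strand that the tables also hold. The sources used here do not say whether strand was used in counting, and reads in the shared bases may belong to either gene. Atf5 shares 272 bases with Il4i1 (2982, 2966, 2931 and 3985 reads), and Cebpb shares 908 bases with Tmem189 (1451, 1361, 1494 and 1448 reads). Ddit3 shares 68 bases with Mars (1931, 1843, 2325 and 2080 reads) and 15 bases with Gm4189 (at most 15 reads). It also shares 2925 bases on its own strand with a second annotated Ddit3 entry (ENSMUSG00000116429), and Atf5 shares 571 bases with Nup62 on the other strand. The deposited data hold no values for that Ddit3 entry or for that Nup62 entry. Ppp1r15a shares 717 bases with Tulp2, which had 0, 0, 3 and 0 reads.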

How the data were processed

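The 4 HT22 libraries were aligned with TopHat2 to mm10, per the submitters' processing notes; the counting program, its annotation and whether strand was used were not given in the sources used here. The authors deposited 4 tables, each for 1 comparison. They hold, per the file headers, mean counts scaled by size factors (a signal per library), fold and log2 fold, and a raw and an adjusted p-value. A further pair of columns per deposited table, whose unit the headers do not name, was read as FPKM from its values. Whole reads were recovered from the deposited scaled counts: 100% of values came out whole at a tolerance of 1e-06 of a read. Columns of values with no sample numbered 0. Of 20089 genes, 19912 matched an identifier of the reference used for gene names and 177 did not.

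CPM were computed with TMM factors (edgeR 4.0.16, R 4.3.3), which lay between 0.893 (control cells under OGD) and 1.05 (control cells of normal culture). A comparison covered genes whose higher library had 20 or more reads, used 0.5 CPM added, and called a gene at 2-fold. No count test was run on the recovered reads and no p-value was computed, there being 1 library per group. Ratio intervals are exact conditional binomial, level intervals exact Poisson and intervals of a difference of log2 ratios a normal approximation to counting error, at 95%, computed with scipy 1.17.1, pandas 2.3.3 and numpy 2.4.6 under Python 3.11.15, with matplotlib 3.10.9 for plots. The 2-fold rule was also run on simulated counts that held counting error only. Such counts cannot show how far replicate cultures would differ. The 10 genes and 6 gene lists were chosen with earlier results of these data known; 134 of the 137 list symbols matched, older symbols through synonyms. The rule for named genes took the 10 genes, at most 3 genes of a list in each OGD comparison (largest absolute log2 ratio with at least 100 reads), the paralogues of the effectors, Neat1, and the 3 genes nearest in pattern to each of Atf4, Ddit3, Chac1 and Gdf15. Alternatives were total counts or median-of-ratios factors, FPKM, no read floor or one of 100, and 0.1 or 2 CPM added. A TMM fit without the 2094 genes apart in the control normal library was added after seeing the data.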

Additional observations from a re-analysis of the deposited data

Results flagged for a closer look

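For 4 of the 10 genes the knockdown log2 ratio was above 0 in normal culture and below 0 under OGD, each with a counting interval clear of equality. The ratio under OGD minus that in normal culture was -0.75 for Atf4, -1.12 for Trib3, -1.33 for Chac1 and -2.50 for Gdf15. With 1 library per group this difference was not tested. The side of Trib3 under OGD turns with the deposited FPKM. The library of control cells in normal culture, which holds 2041 CPM of neuronal markers against 45.7 CPM in knockdown cells of normal culture, enters all 4 differences, and its part in them was not tested.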

How the results depend on the processing

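No paired analysis was possible because each group held 1 library and the labels give no replicate numbers, and no library could be left out. Of the counts at least 2-fold higher or lower, 2 changed: knockdown under OGD gave 1 gene higher in place of 0 with total counts and 1 with the deposited FPKM, in both cases Atf3, and knockdown in normal culture gave 2 higher in place of 1 with median-of-ratios factors, the second being Nupr1. The other 2-fold counts kept their value under the alternatives run. The count of genes whose OGD log2 ratio was lower by at least 1 in knockdown cells was not among these counts. For that count, Trib3 fell inside the limit with total counts (-0.89) and with FPKM (-0.50). Of 50 log2 ratios and differences per setting, 28 moved beyond their counting interval with total counts, 30 with FPKM, 5 with 2 CPM added, 1 with median-of-ratios factors and 0 with 0.1 CPM added, a floor of 100 reads or no floor. No called ratio changed sign. Of the uncalled ones, Cebpb with OGD in control cells went from 0.08 to -0.16 with total counts and to -0.16 with FPKM, and Trib3 with knockdown under OGD went from -0.30 to 0.09 with FPKM. Total counts moved the median of all genes by 0.19 for knockdown under OGD and by -0.23 for OGD in control cells. The TMM fit without the 2094 genes apart in the control normal library, chosen after seeing the data, moved 3 of 50 values and changed no sign. The cause of these shifts was not tested. The lowest counts, 76 reads of Gdf15 and 136 of Atf3, set the widest intervals.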
